A study of Mus musculus with 5 samples.

Results

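Alveolar type 2 (AT2) cells were the 1380 cells that the deposited cell table assigns to the type ACT2 within the class of alveolar cells, out of 22118 annotated cells in 5 lung libraries (6.24%) and 23852 cells in all. The members were taken from that label alone, which the authors assigned by hand from clusters. Single-cell RNA sequencing (5' droplet libraries) was performed on dissociated whole lungs of female BALB/c mice, which bore lung metastases of the mouse mammary carcinoma line 4T1. The libraries ask how lung cells differ after priming of the lung by tumor-secreted factors (TSF) and as metastases progress. TSF and control medium (CM) are set side by side here at each of 2 times after cancer-cell injection.

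TSF is medium conditioned by pieces of mammary tumors, and CM is the same kind of medium kept without tumor. Mice were 6 weeks old at the first injection and received 200 µL intravenously, 3 times a week for 3 weeks. All groups, the CM groups included, then received 25000 4T1 cells intravenously, which expressed the Thy1 variant CD90.1 as a reporter. The groups were CM at day 11 (1 library), TSF at day 11 (libraries a and b), CM at day 16 (1 library) and TSF at day 16 (1 library). Mice were 10 weeks old at day 11, labelled metastatic seeding, and 11 weeks old at day 16, labelled metastatic colonization. No library without cancer cells was analysed here, so day 11 is not a healthy baseline, and age and time after cancer-cell injection cannot be told apart. Each library pooled cells of 3 mice, so the unit of comparison is the library, and cells reached the droplets only if they survived dissociation.

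Libraries a and b of TSF at day 11 differed in their cell type counts by less than sampling noise (chi-square test, 15.2 on 20 degrees of freedom, p = 0.766), while every other pair of libraries gave a chi-square of 68.3 or more. The labels do not say whether a and b came from separate pools of mice or from 1 pool, and this test cannot decide it. On these counts, libraries a and b were treated as 1 sample, which left 1 sample in each group and no test between groups. All intervals below are exact 95% intervals for counting error only, and they say nothing of differences between mice. Between 3567 and 5113 cells per library were annotated. Cell barcodes of AT2 cells were shared between libraries 3 times in all over the 10 pairs of libraries.

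AT2 cells are the cuboidal cells of the alveolar wall that make pulmonary surfactant, store it in lamellar bodies and secrete it to keep the air sacs from collapsing. They also act as progenitors that can give rise to the flat alveolar type 1 (AT1, labelled ACT1) cells across which gas is exchanged. Their defining genes encode surfactant proteins (Sftpc, Sftpb), a membrane protein of lamellar bodies (Lamp3) and the transporter that loads lipid into them (Abca3). The cell table holds no expression values, so the label could not be checked against these markers in the AT2 cells themselves. Of the 4 genes, Sftpc, Sftpb and Lamp3 were among the 1000 highly variable genes that the authors used to arrange the cells, and Abca3 was not.

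The first question was how large the AT2 compartment was in each lung. At day 11, AT2 cells made up 8.29% of annotated cells in CM (310 of 3738, interval 7.43% to 9.22%), 7.73% in TSF library a (395 of 5113, 7.01% to 8.49%) and 7.18% in TSF library b (345 of 4804, 6.47% to 7.95%). At day 16 they made up 3.81% in CM (136 of 3567, 3.21% to 4.49%) and 3.96% in TSF (194 of 4896, 3.43% to 4.55%). The 3 libraries of day 11 lay above both libraries of day 16, and no interval of day 11 reached one of day 16. Within a day, the CM and TSF values lay close to each other.

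**Figure D1:**
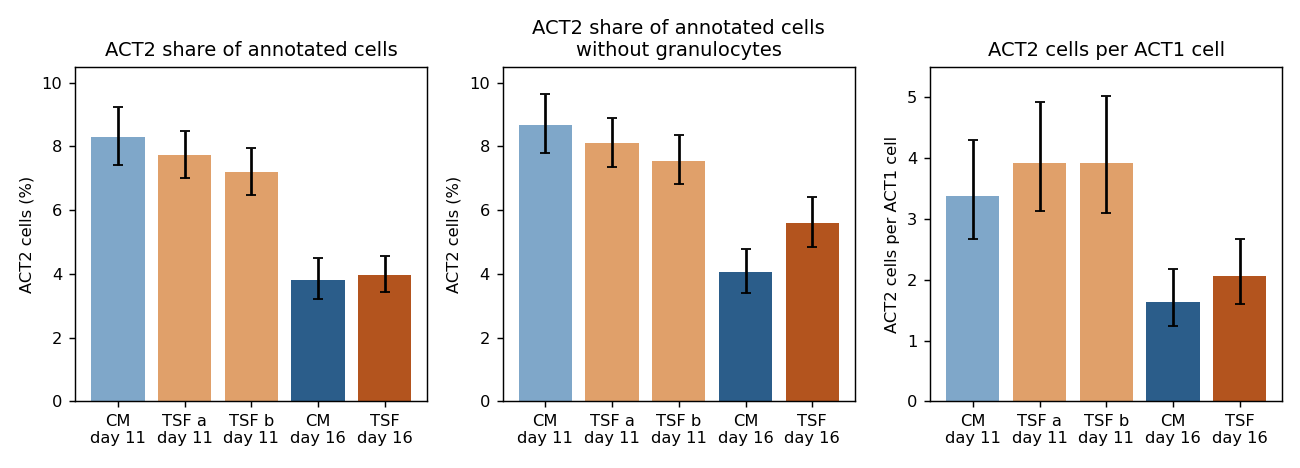
AT2 (ACT2) cells in each of the 5 libraries, as a percent of annotated cells (left), as a percent of annotated cells without granulocytes (middle) and as cells per AT1 (ACT1) cell (right). Bars are single libraries and error bars are exact 95% intervals for counting error. In every panel the day 16 bars stand below the day 11 bars, and CM and TSF at day 16 separate most in the middle panel (4.06% and 5.59%).

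The share at day 16 was 0.460 times that at day 11 in CM (interval 0.373 to 0.564), which is -1.12 on the log2 scale. In TSF, where the day 11 value is the mean of both libraries (7.45% ± 0.385, SD of 2 libraries of 1 sample), the ratio was 0.532 (0.451 to 0.623), or -0.91 on the log2 scale. Differences past 1.5-fold were common among cell types, since in the same comparisons 40% of the 20 cell types tested in CM and 33.3% of the 21 tested in TSF differed by over 1.5-fold in share in either direction. AT2 cells had the lowest ratio of the 20 types in CM. In TSF they came 3 from the lowest of 21, after ciliated cells (0.415) and lymphatic endothelial cells (0.504, from 5 cells at day 16). The order next to them was not resolved, since endothelial cells in TSF had a ratio of 0.534 (0.489 to 0.582) and monocytes in CM one of 0.509 (0.387 to 0.664).

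TSF and CM did not separate in the AT2 share. The ratio of TSF to CM was 1.04 (0.830 to 1.30) at day 16 and 0.899 (0.787 to 1.03) at day 11, and both intervals include 1. Over the same comparisons, 45% of 20 cell types at day 16 and 23.8% of 21 at day 11 differed by over 1.5-fold either way, and AT2 cells were among neither. The interval at day 16 leaves room for differences of up to 1.30-fold.

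**Figure D2:**
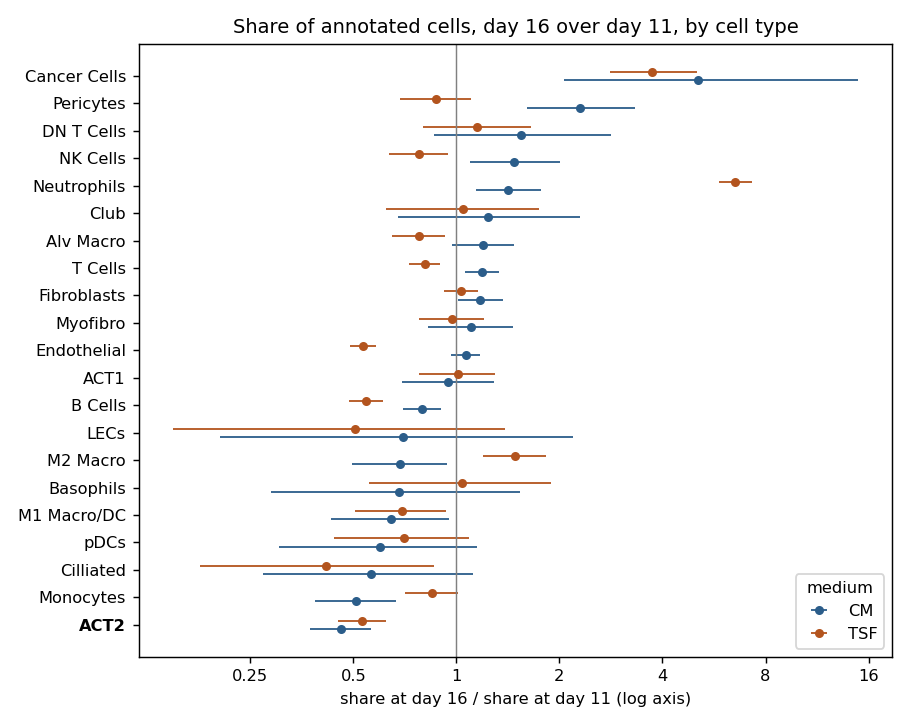
Share of annotated cells at day 16 divided by that at day 11 for all 21 cell types (log axis), in CM (blue) and TSF (orange), with exact 95% intervals for counting error. Types are ordered by the CM ratio and spelled as in the cell table. The AT2 row (ACT2, bottom) lies left of 1 in both media, while the AT1 row (ACT1) lies near 1. LECs were plotted but not counted among the 20 types of the CM comparison, which needed 20 cells.

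A share can fall because other cells are added, so AT2 cells were next set against chosen subsets of the lung. Neutrophils made up 28.7% of annotated cells in TSF at day 16, against 5.69% in CM at day 16 and 4.01% in CM and 4.40% in TSF at day 11. With granulocytes left out of the total, the AT2 share was 8.68% in CM, 8.10% in TSF library a and 7.55% in TSF library b at day 11. At day 16 it was 4.06% (3.41% to 4.78%) in CM and 5.59% (4.85% to 6.41%) in TSF. On that total the TSF to CM ratio at day 16 was 1.38 (1.10 to 1.73), so the call on TSF against CM at day 16 depended on which cells were counted.

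Among cells that were neither immune nor cancer cells, the AT2 share was 17.3% in CM, 15.6% in TSF library a and 14.6% in TSF library b at day 11. At day 16 it was 7.93% (6.69% to 9.31%) in CM and 11.7% (10.2% to 13.3%) in TSF. The values of day 16 again lay below all 3 libraries of day 11, with TSF between CM at day 16 and the libraries of day 11. Among epithelial cells, AT2 cells made up 68.9% in CM, 73.3% in TSF library a and 71.6% in TSF library b at day 11, and 52.5% in CM and 60.2% in TSF at day 16.

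The comparison with AT1 cells, the other alveolar epithelial type, does not depend on the number of immune cells. There were 3.37 AT2 cells per AT1 cell in CM at day 11 (2.66 to 4.30), 3.91 in TSF library a (3.14 to 4.92) and 3.92 in TSF library b (3.09 to 5.01). At day 16 there were 1.64 in CM (1.24 to 2.18) and 2.06 in TSF (1.61 to 2.67). Both values of day 16 lay below the 3 of day 11, and only the intervals of TSF at day 16 and CM at day 11 touched, at their ends.

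The number of AT2 cells per AT1 cell at day 16 was 0.486 times that at day 11 in CM (0.335 to 0.708) and 0.527 times in TSF (0.390 to 0.716). Among cells with at least 3000 UMIs the ratios were 0.641 in CM (0.397 to 1.04) and 0.689 in TSF (0.462 to 1.04), and both intervals then include 1. The AT1 share itself barely moved, with ratios of day 16 to day 11 of 0.945 (0.694 to 1.29) in CM and 1.01 (0.778 to 1.30) in TSF. TSF and CM differed by less than counting error in this measure, with ratios of 1.26 (0.857 to 1.85) at day 16 and 1.16 (0.865 to 1.55) at day 11. Whether fewer AT2 cells were present, or fewer survived dissociation and annotation, cannot be told apart with these files.

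Against endothelial cells, which line the capillaries around the alveoli, CM and TSF gave different values. AT2 cells per endothelial cell were 0.363 in CM, 0.313 in TSF library a and 0.284 in TSF library b at day 11, and 0.157 in CM and 0.298 in TSF at day 16. The ratio of day 16 to day 11 was 0.432 in CM (0.343 to 0.543) and 0.995 in TSF (0.826 to 1.19). The endothelial share itself had a ratio of 1.06 in CM and 0.534 in TSF. TSF to CM was 1.90 at day 16 (1.48 to 2.44) and 0.825 at day 11 (0.706 to 0.966).

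Against fibroblasts, the AT2 number at day 16 was 0.391 times that at day 11 in CM (0.302 to 0.506) and 0.516 times in TSF (0.422 to 0.629). Against airway epithelium, counted as club and ciliated cells together, the ratio was 0.526 in CM (0.322 to 0.865) and 0.703 in TSF (0.458 to 1.12). Alveolar macrophages, which live in the air space and take up surfactant, are another natural partner. There were 1.75 AT2 cells per alveolar macrophage in CM, 1.69 in TSF library a and 1.54 in TSF library b at day 11, and 0.673 in CM and 1.10 in TSF at day 16. With all cells counted, AT2 cells were thus fewer at day 16 against AT1 cells, fibroblasts and alveolar macrophages in both media, the first of which was not resolved at 3000 UMIs or more, and not resolved from day 11 against endothelial and airway cells in TSF.

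The next question was what kind of cells, by RNA content, carried the label. The median AT2 cell held 4829.5 UMIs in CM, 4629 in TSF library a and 4773 in TSF library b at day 11, and 6141.5 in CM and 5623 in TSF at day 16. UMIs are counts of distinct RNA molecules per cell after the authors' ambient correction. Other annotated cells of the same libraries had medians of 1963 to 2568 UMIs, so AT2 cells held 2.29, 2.36, 2.33, 2.39 and 2.53 times as many, in the same order of libraries. AT2 cells ranked 5 from the highest of 21 types in every library.

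Because of this RNA content, AT2 cells gave a larger part of the RNA than of the cells. Of all UMIs in annotated cells they held 13.2% in CM, 12.0% in TSF library a and 10.9% in TSF library b at day 11, and 6.68% in CM and 5.87% in TSF at day 16. Each of these values is above the AT2 share of cells in that library.

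AT2 cells held more UMIs than AT1 cells in 4 of 4 groups, with a mean difference of medians of 1965 UMIs (SD 914). An exact paired permutation test over groups, two-sided, gave p = 0.125 (0.225 adjusted over the 9 tests of this family), which is the smallest p that 4 groups allow. Club cells, the secretory cells of the airway, held more UMIs than AT2 cells in all 4 groups, with a mean AT2 minus club difference of -6001 UMIs (SD 5726, exact p = 0.125). Against ciliated cells, AT2 cells had more UMIs in 1 of 4 groups. Club cells numbered 19 to 29 per library and ciliated cells 9 to 26, so the medians of both types rest on few cells.

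**Figure D3:**
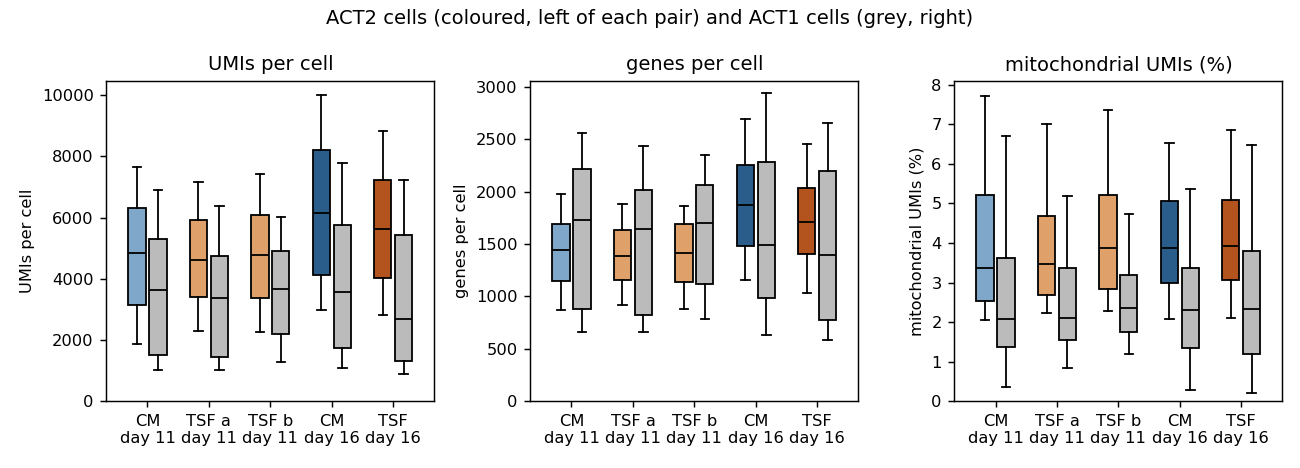
UMIs per cell, genes per cell and percent of mitochondrial UMIs in AT2 (ACT2, coloured) and AT1 (ACT1, grey) cells of each library. Boxes span the quartiles, the line is the median and whiskers run from the first to the ninth decile over cells. AT2 medians lie above AT1 medians for UMIs and mitochondrial UMIs in all 5 libraries, and for genes in the libraries of day 16 only.

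The number of genes detected was less marked. Median genes per AT2 cell were 1447 in CM, 1382 in TSF library a and 1418 in TSF library b at day 11, and 1869.5 in CM and 1713 in TSF at day 16. These are 1.44, 1.41, 1.42, 1.56 and 1.83 times the medians of other annotated cells. AT2 cells had more genes than AT1 cells in 2 of 4 groups, with a mean difference of 34.5 genes (SD 359, exact permutation p = 0.75, 0.844 adjusted). They had fewer genes than ciliated cells in all 4 groups, with a mean AT2 minus ciliated difference of -1057 genes (SD 438, exact p = 0.125).

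Since genes detected grow with UMIs, cells of 4000 to 6000 UMIs were compared. In that range the median AT2 cell had 1495 genes in CM (103 cells), 1433 in TSF library a (155 cells) and 1445 in TSF library b (124 cells) at day 11. At day 16 it had 1625 in CM (33 cells) and 1648.5 in TSF (62 cells), with the lower quartiles of 1531 and 1508 above the day 11 medians. AT1 cells of the same range had 2142.5, 1992, 2068.5, 2140 and 2191.5 genes in the same order of libraries. At like depth, AT2 cells therefore held fewer kinds of RNA than AT1 cells in all 5 libraries, and more at day 16 than at day 11.

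The higher UMI content of AT2 cells at day 16 stood beside higher medians of the other cells. Median UMIs of AT2 cells at day 16 were 1.27 times those at day 11 in CM, where other cells were at 1.22, and 1.20 times in TSF, where other cells were at 1.11. Median genes rose by a ratio of 1.29 in CM, with other cells at 1.19, and of 1.22 in TSF, where other cells were at 0.944. The other cells in TSF were not the same mix, with neutrophils at 28.7% of annotated cells at day 16 and 4.40% at day 11. TSF to CM, the ratio of median UMIs in AT2 cells was 0.973 at day 11 and 0.916 at day 16, and that of median genes 0.968 and 0.916. A depth gap between libraries and a change of AT2 cells cannot be told apart with 1 sample a group.

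The share of large AT2 cells also differed by day. Cells with 10000 or more UMIs made up 2.26% of AT2 cells in CM, 1.01% in TSF library a and 1.16% in TSF library b at day 11, and 10.3% in CM and 5.67% in TSF at day 16. Cells under 1500 UMIs made up 5.48%, 3.04% and 2.03% at day 11 in the same order, and 1.47% in CM and 1.55% in TSF at day 16. The whole distribution of UMIs thus lay higher at day 16.

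AT2 cells were among the types richest in mitochondrial RNA. The median was 3.37% of UMIs in CM, 3.47% in TSF library a and 3.87% in TSF library b at day 11, and 3.88% in CM and 3.93% in TSF at day 16, against 2.13% to 2.44% in other annotated cells. They ranked first of 21 types in CM and TSF library a at day 11, 2 in TSF library b and in TSF at day 16, and 3 in CM at day 16. Against AT1 cells the mean difference of medians was 1.47 percentage points (SD 0.142) and was positive in 4 of 4 groups (exact permutation p = 0.125, 0.225 adjusted, the smallest p possible). Against the airway types AT2 cells were higher in 2 of 4 groups each, with mean differences of -0.108 percentage points from club cells (SD 1.42, exact p = 1) and -0.399 from ciliated cells (SD 0.628, exact p = 0.5).

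A high mitochondrial percent can be a property of a cell type or a sign of damaged cells, and which of these applies to AT2 cells was not tested. The authors removed cells over 10%, so the upper tail is cut. Over 5% mitochondrial UMIs were held by 28.1% of AT2 cells in CM, 22.0% in TSF library a and 27.0% in TSF library b at day 11, and by 25.7% in CM and 27.8% in TSF at day 16. Across AT2 cells within a library, UMIs and mitochondrial percent had a Spearman correlation of -0.51, -0.42, -0.53, -0.39 and -0.36 in the same order of libraries, over 136 to 395 cells that share a library. Cells with a higher mitochondrial percent thus tended to hold fewer UMIs, which are also the denominator of that percent. No day or medium stood apart in the share over 5%.

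The last question was how AT2 cells varied among themselves. The authors clustered all cells first and then clustered the alveolar and airway cells again. AT2 cells fell into 9 initial clusters, of which 6 with at least 100 AT2 cells held 1364 of the 1380, and into 25 sub-clusters, none of which held a cell of another annotated type. The authors refined cell types on these sub-clusters, so the last point can follow from the labelling and does not measure purity. The genes that define a cluster were not analysed here, so clusters are given by number, and a shift between clusters may come from numbers of cells of a kind or from a shift in expression of all cells. These cannot be told apart.

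**Figure D4:**
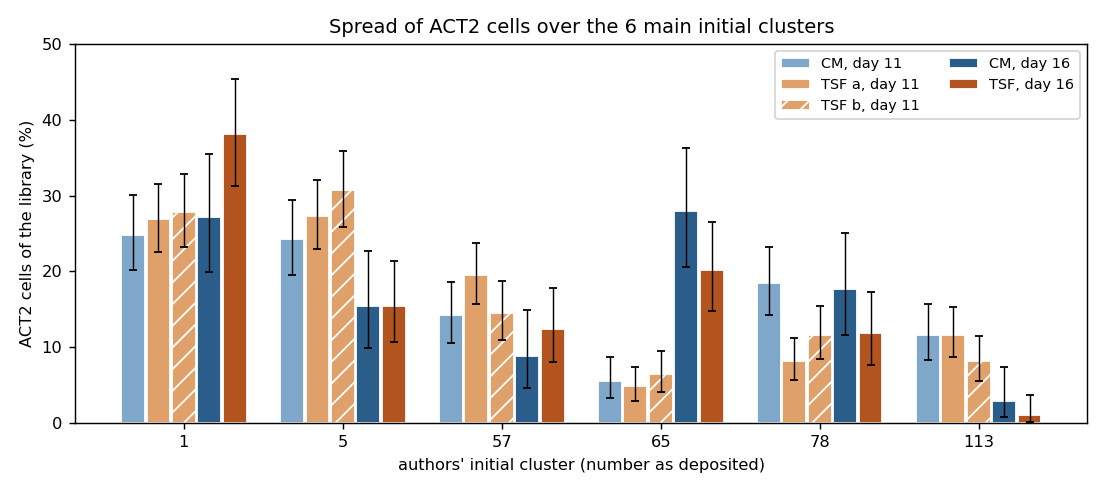
Percent of the AT2 cells of each library in each of the 6 main initial clusters, numbered as deposited, with exact 95% intervals for counting error. The day 16 bars of cluster 65 (27.9% and 20.1%) stand above the 3 of day 11 (4.81% to 6.38%), and those of cluster 113 (2.94% and 1.03%) stand below theirs (8.12% to 11.6%).

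Cluster 65 held a larger part of AT2 cells at day 16 in both media. It held 5.48% of AT2 cells in CM, 4.81% in TSF library a and 6.38% in TSF library b at day 11, against 27.9% in CM (20.6% to 36.3%) and 20.1% in TSF (14.7% to 26.4%) at day 16. The ratio of day 16 to day 11 was 5.10 in CM (2.81 to 9.63) and 3.59 in TSF (2.28 to 5.77). Its part of all annotated cells was 0.455% (0.265% to 0.727%), 0.372% (0.224% to 0.580%) and 0.458% (0.287% to 0.693%) in the libraries of day 11. At day 16 it was 1.07% in CM (0.755% to 1.46%) and 0.797% in TSF (0.567% to 1.09%). The cluster's part of annotated cells was thus higher at day 16 in both media, while the AT2 share was lower. The library intervals lay apart in CM and overlapped in TSF.

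Cluster 113 went the other way, with 36, 46 and 28 cells in the libraries of day 11 and 4 cells in CM and 2 in TSF at day 16. Its share of AT2 cells was 11.6% in CM, 11.6% in TSF library a and 8.12% in TSF library b, and then 2.94% in CM and 1.03% in TSF. The ratio of day 16 to day 11 was 0.253 in CM (0.0655 to 0.707) and 0.104 in TSF (0.0123 to 0.386). Among AT2 cells with at least 3000 UMIs the CM ratio was 0.522 (0.126 to 1.64), an interval that includes 1, and in TSF no cell of day 16 was left in the cluster (0 to 0.256). Cluster 5 also held less of the AT2 cells at day 16, with a ratio of 0.533 in TSF (0.352 to 0.786) and 0.638 in CM (0.374 to 1.05), the second of which includes 1.

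The largest AT2 cluster, cluster 1, held 24.8% in CM, 26.8% in TSF library a and 27.8% in TSF library b at day 11, and 27.2% in CM and 38.1% in TSF at day 16. Its ratio of day 16 to day 11 was 1.40 in TSF (1.06 to 1.83) and 1.10 in CM (0.719 to 1.64), the second of which includes 1. Cluster 57 held between 8.82% and 19.5% in the 5 libraries. Between media at day 16 the intervals of the TSF to CM ratio included 1 for all 6 clusters. At day 11 the interval left 1 for cluster 78 alone, which held 18.4% in CM, 8.10% in TSF library a and 11.6% in TSF library b (ratio 0.536, 0.369 to 0.763).

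**Figure D5:**
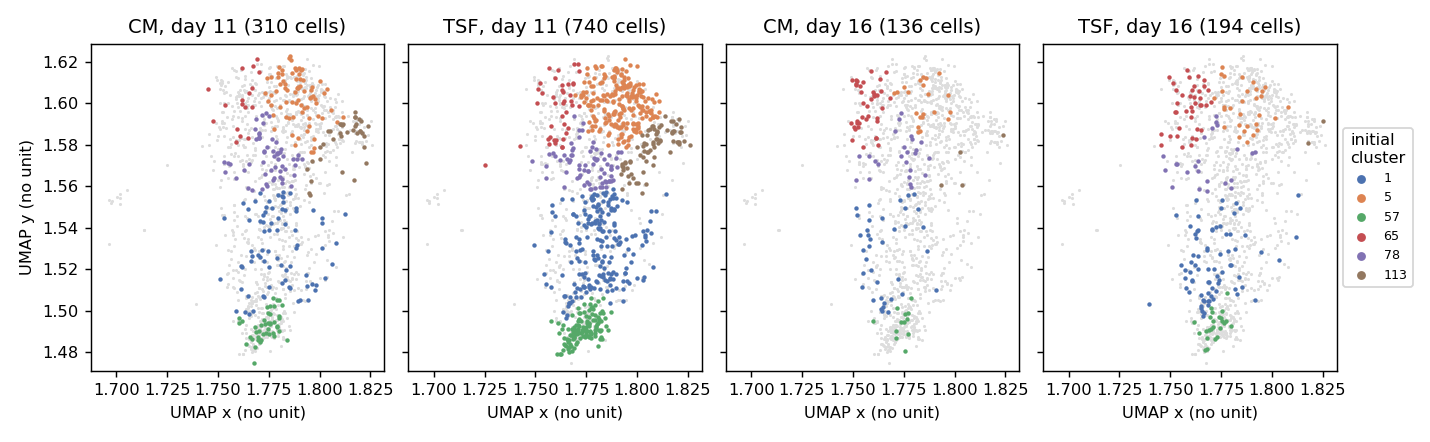
Position of AT2 cells in the authors' UMAP, a 2-dimensional map on which cells of like expression lie close, in each group. Colours are the 6 main initial clusters and grey points are AT2 cells of all groups; 5 AT2 cells lie outside the axes. At day 16 the right-hand side (clusters 5 and 113) is thin and the upper left (cluster 65) is filled.

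On the authors' map the same difference appeared as a sideways shift. The authors drew the initial clusters on this map, so its positions restate the cluster shares and are not a separate result. The median horizontal position of AT2 cells was 1.780 in CM, 1.782 in TSF library a and 1.782 in TSF library b at day 11, and 1.768 in CM and 1.769 in TSF at day 16. The map has no unit, so only the order can be read. The upper quartiles of day 16, 1.778 in both media, lay below the medians of day 11.

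Among the sub-clusters with at least 20 AT2 cells, 3 had a median mitochondrial percent over 5 and held 171 AT2 cells (12.4%). Smaller sub-clusters past that level held 1 to 3 AT2 cells each and were not counted. They made up 16.1% in CM, 9.62% in TSF library a and 8.41% in TSF library b at day 11, and 15.4% in CM and 17.0% in TSF at day 16. The largest of them, sub-cluster A.6, had a median of 2606 UMIs and 7.47% mitochondrial UMIs, below and above the AT2 medians. Sub-cluster A.5 held 4.84%, 3.54% and 5.22% of AT2 cells in the libraries of day 11 and 16.9% in CM and 8.25% in TSF at day 16, and sub-cluster A.18 held 4.19%, 6.33% and 8.99% and then 0.735% (1 cell) in CM and 0.515% (1 cell) in TSF.

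Doublets bear on these counts, because droplets that the authors called doublets were left out of them. A doublet type named D18, with 434 cells, lay wholly within the alveolar and airway sub-clustering. There were 0.271 such cells per AT2 cell in CM, 0.362 in TSF library a and 0.296 in TSF library b at day 11, and 0.404 in CM and 0.258 in TSF at day 16. Their median UMIs, 7406, and median genes, 2478, lay above those of AT2 cells. Neither day nor medium ordered these ratios.

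Because surfactant RNA is abundant, it can leak into droplets that hold other cells, so its level was read in cells that should lack it. The files give gene values for the cancer cells of day 16, which were 139 in TSF (median 26615 UMIs) and 29 in CM (median 27679 UMIs), after the authors' correction. Sftpc (GRCm38 chr14:70520949-70524081, minus strand), Sftpb (chr6:72304610-72314371, plus strand) and Lamp3 (chr16:19653378-19706375, minus strand) had a UMI in 0 of 139 and 0 of 29 cells. A count of 0 allows a share of up to 2.16% in TSF and 10.3% in CM. After correction, leaked RNA of these 3 genes was thus not detectable in the cancer cells at this depth. The correction subtracts ambient RNA, and the authors raised its contamination fraction above the automatic estimate. The zeros can therefore follow from the correction and do not measure leakage before it. The other surfactant protein genes, named after their values were seen, were not wholly absent, with Sftpa1 in 0 of 139 cells in TSF and 2 of 29 in CM (6.90%, mean 0.363 CP10k) and Sftpd in 1 of 139 and 0 of 29.

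Abca3 (chr17:24351950-24410201, plus strand) differed from them, with a UMI in 30.2% of cancer cells in TSF and 37.9% in CM and means of 0.125 and 0.228 UMIs per 10000 (CP10k). A UMI of Abca3 in these cells was thus never accompanied by one of Sftpc, Sftpb or Lamp3. Of all 23771 genes, 42.9% reached a share of 10% of cancer cells in TSF or CM.

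A list of 25 AT2 genes was read in the same way. Of these, 16 were highly variable genes, against 4.21% of all genes. In the cancer cells 7 were at 0 in both libraries (Slc34a2, Cxcl15, Lyz2 and Lgi3 beside the 3 above), as were 38.0% of all genes. A UMI was found in under 10% of cells for 9 genes and in at least 10% for 9, against 42.9% of all genes for the latter. The last 9 include lipid enzymes (Fasn in 74.8% of cells in TSF and 72.4% in CM, Scd1 in 26.6% and 6.90%, Lpcat1 in 49.6% and 79.3%) and the fatty acid carrier Fabp5 (64.7% and 79.3%). They also include the protease Ctsh (82.7% and 75.9%), the transcription factor Etv5 (20.1% and 24.1%), Ppp1r14c (20.1% and 13.8%) and Cd74, a chaperone of antigen presentation (57.6% and 79.3%). Cd74 had a mean of 4.23 CP10k in TSF and 21.5 in CM and made up most of the list's sum of 8.34 and 26.9.

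Lists for other lung cells were read in the same cancer cells, where 42.9% of all genes passed 10% in TSF or CM. Of 12 AT1 genes 4 passed 10% (Emp2 in 94.2% and 89.7%, Vegfa in 48.2% and 62.1%, Cav1 in 12.2% and 13.8%, Rtkn2 in 10.1% and 10.3%, in TSF and CM). None of 6 club genes (5 at 0) and none of 6 ciliated genes (3 at 0) passed, nor did any of 5 macrophage genes, the leukocyte gene Ptprc or the neutrophil genes S100a8 and S100a9. Cdh5 of 3 endothelial genes (4.32% and 10.3%) and Dcn of 2 fibroblast genes (11.5% and 6.90%) passed in a single library. CD90.1, the reporter of the injected cells, had a UMI in 34.5% and 6.90%.

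All 6 genes listed for transitional alveolar cells, a state between AT2 and AT1 cells, passed 10% in the cancer cells. Of all genes, 42.9% did so in TSF or CM, and why these 6 did was not tested. These were the keratins Krt8 (98.6% in TSF and 100% in CM) and Krt19 (38.1% and 31.0%), Sfn (61.9% and 72.4%), Cldn4 (25 and 3 cells), Lcn2 (66.2% and 34.5%) and Areg (64.7% and 72.4%). Their sum was 26.5 CP10k in TSF and 24.5 in CM. Whether AT2 cells themselves held them was not analysed here.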

How the data were processed

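Single-cell libraries of 5 samples were analysed from the deposited tables. Per the methods and the submitters' processing notes, the authors mapped reads with Cell Ranger to mm10 (GRCm38.p6) plus a CD90.1 sequence, used a customised SoupX to correct UMI counts for ambient RNA, processed them in Seurat 4.1.0, removed cells with few UMIs, few genes or much mitochondrial RNA, clustered in Monocle3 and annotated clusters by hand. The deposited cell table gives counts of UMIs and genes per cell, the percent of mitochondrial UMIs, labels and UMAP coordinates, which were used as a score with no unit. The lowest values among cells used were 800 UMIs and 202 genes, and the highest mitochondrial percent was 9.99. The authors' table of day 16 cancer cells gives, per gene, the counts and percent of positive cells and the mean CP10k. Its fold changes, p-values, q-values and ranking scores, and a table of enrichment scores, hold the authors' own comparisons and were not used. A further 2 libraries in the cell table, which the sample descriptions do not cover, were left aside, and no matrix of gene values per cell was analysed.

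Cells called doublet or unknown were left out, which left 21 types. Shares were given Clopper-Pearson intervals, ratios of shares exact conditional intervals (pooled counts of libraries a and b), and ratios of cell numbers exact conditional odds-ratio intervals. These functions were tested on simulated data. A type was counted as differing over 1.5-fold where both groups together held at least 20 cells. A share of 0 was given a limit of 3 counts. Medians of libraries were compared between cell types by exact paired permutation tests over the 4 groups, with Benjamini-Hochberg adjustment over 9 tests. The tools were scipy 1.17.1, numpy 2.4.6, pandas 2.3.3, matplotlib 3.10.9 and Python 3.11.15. Gene coordinates came from GENCODE on GRCm38.

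AT2 cells and the gene lists (AT2, AT1, club, ciliated, transitional alveolar, macrophage, endothelial, leukocyte, neutrophil, fibroblast, CD90.1) were chosen with earlier results of these data known. Values are named for Sftpc, Sftpb, Lamp3 and Abca3 and for listed genes that reached a share of 10% of cancer cells in TSF or CM. Of the clusters, 65, 113, 5 and 78 and sub-clusters A.5, A.6 and A.18 were picked after their values were seen. Alternatives were other totals for the share, UMI minima of 1500 and 3000, a mitochondrial maximum of 5%, leaving out library a or b, and means in place of medians.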

Additional observations from a re-analysis of the deposited data

Results flagged for a closer look

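Of 11 results checked, 2 were set apart because the libraries of one contrast moved in opposite directions. Neither difference was tested, since each group is 1 sample. The AT2 share of annotated cells was lower in TSF than in CM at day 11 (7.45% against 8.29%) and higher at day 16 (3.96% against 3.81%), a difference of 0.21 on the log2 scale between the days, and the interval of each ratio includes 1. The share of AT2 cells in initial cluster 78 went from 18.4% at day 11 to 17.6% at day 16 in CM and from 8.10% and 11.6% in the 2 libraries to 11.9% in TSF, a difference of 0.35 on the log2 scale between the media. Its ratio of day 16 to day 11 was 0.960 in CM (0.570 to 1.57) and 1.20 in TSF (0.727 to 1.97), and both intervals include 1.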

How the results depend on the processing

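Of the recomputed values of the main results, 75 moved by less than their spread and 18 by more, and no value whose interval left 1 changed direction. The ratio of AT2 shares depended mainly on the total. TSF over CM at day 16 was 1.38 with granulocytes left out and 1.47 (1.18 to 1.85) among cells that were neither immune nor cancer cells, and TSF over CM at day 11 was 1.05 among epithelial cells. Day 16 over day 11 in CM was 0.762 among epithelial cells, and in TSF it was 0.714 without granulocytes, 0.776 among non-immune, non-cancer cells and 0.832 among epithelial cells, so it stayed below 1 in each. Relative to the other cells of the library, TSF over CM in AT2 cells turned above 1 for median UMIs (1.06 at day 16, 1.02 at day 11) and for median genes at day 16 (1.17), and was 1.12 for mitochondrial percent at day 16. Those other cells were not the same mix at day 16, with neutrophils at 28.7% of annotated cells in TSF and 5.69% in CM. With at least 3000 UMIs, the ratio was 0.885 (day 16) and 0.934 (day 11) for UMIs and 0.936 (day 16) for genes, and with means over cells it was 0.935 (day 16) and 0.985 (day 11) for genes. The summed CP10k of AT2 genes in cancer cells, TSF over CM, was 0.310, against 0.904 as the mean percent of cells with a UMI and 0.754 without Cd74. The last, like counting doublet type D18 with AT2 cells, leaving out the 3 sub-clusters of at least 20 AT2 cells with a median mitochondrial percent over 5 and the settings for clusters 65 and 113, was added after seeing the data. With at least 3000 UMIs, cluster 113, day 16 over day 11, was 0 in TSF and 0.522 in CM, and AT2 cells per AT1 cell were 0.641 in CM and 0.689 in TSF. All but the first of these then had intervals that include 1. Leaving out library a or b of TSF at day 11 moved no share, ratio of cell numbers or paired difference beyond its spread. For medians of AT2 cells the spread was itself taken from these left-out values, so no move could have shown. Those values count among the 75. No paired analysis was possible because the labels give replicate letters only to the 2 libraries of TSF at day 11, so no numbers pair samples across groups. With 1 sample a group, the number of cells limits these intervals and the spread between mice is not measured.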
